A study of Danio rerio with 18 samples.

Results

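The genes described here encode matrix metalloproteases (MMPs), the related ADAMTS and ADAMTS-like proteins and the tissue inhibitors of metalloproteases (TIMPs). They were taken by symbol: every row whose name began with mmp or timp and a digit, or with adamts. This gave 48 of the 34326 genes in the deposited tables. They fall into 11 secreted MMPs, 11 MMPs held at the membrane, 17 ADAMTS proteases, 4 ADAMTS-like proteins and 5 TIMPs. A further 3 rows that belong to the family carry names the rule does not match, and timp3 was not analysed here.

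The libraries are bulk RNA-seq of cells positive for green fluorescent protein, sorted from dissociated eyes of zebrafish larvae and labelled as retinal pigment epithelium (RPE), the layer behind the retina that supports the photoreceptors. Ablated larvae (MTZ+) were bathed in metronidazole at 10 mM over 24 h, between days 5 and 6 post fertilisation, to ablate the RPE. Unablated larvae (MTZ-) received none. All larvae of both groups had been kept in 1.5X phenylthiourea, which blocks pigment, from 0.25 to 5 days post fertilisation. Sorting took place at 2, 4 or 7 days post injury (dpi), with 3 libraries in each of the 6 groups and at most 1000 cells in a library. The labels name neither the transgene nor its promoter. The zebrafish model known for this ablation drives nitroreductase fused to eGFP from the rpe65a promoter, and the sorted cells of ablated larvae are then those that survived or that express the transgene anew. No group received metronidazole without ablation, so effects of the drug and of ablation cannot be told apart.

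MMPs are zinc proteases that cut collagens, gelatins and other matrix proteins, and also release or inactivate growth factors and cytokines. Most are made as inactive precursors; some are secreted, and others stay on the cell surface through a membrane span or a lipid anchor. ADAMTS proteases are secreted enzymes that cut proteoglycans such as versican or trim procollagens, while ADAMTS-like proteins lack the protease domain and bind the matrix. TIMPs block the active site of these enzymes, and TIMP2 with MMP14 also helps to activate MMP2. In the eye, matrix turnover by these proteins is known for Bruch's membrane beneath the RPE and for wound repair.

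Depth ran from 21870200 to 60377600 counts per library, rounded to 6 digits. A library held a count for 24 to 44 of the 48 genes. The 16 RPE markers together held 66619 to 78495 CPM (counts scaled to library size) in ablated libraries at 2 dpi, against 125166 to 144533 CPM in unablated ones. At 4 and 7 dpi their ranges overlapped. The library labelled unablated 4 dpi replicate 1 has a sequencing name that says positive; its label was followed, and values without it are given where it matters. The labels do not tie replicates to clutches or fish, so p-values measure only the spread between these libraries. In bulk libraries, fewer cells of a type and less RNA per cell cannot be told apart.

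Per length, a small number of genes carried most of the family's RNA. In TPM, the deposited transcript abundance scaled for gene length and library size, timp2a averaged 43.7 TPM over the 18 libraries. That was 34.9% of the summed mean TPM of all 48 genes. Next came adamtsl7 at 22.9 TPM, timp2b at 11.6 TPM, adamts1 at 10.0 TPM, mmp23bb at 6.26 TPM, mmp13b at 6.16 TPM, timp4.1 at 5.39 TPM and adamts10 at 3.15 TPM. These 8 genes made up 87.3% of the family's mean TPM. Only 13 of the 48 reached a mean of 1 TPM, and 15 had a count in all 18 libraries. The TPM of the 3 times come from tables normalised separately by the authors, so the order is a description. Ranges overlapped throughout: timp2a ran from 3.76 to 121 TPM and adamtsl7 from 0 to 223 TPM, so no neighbours among these 8 were separated by more than their spread.

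**Figure D1:**
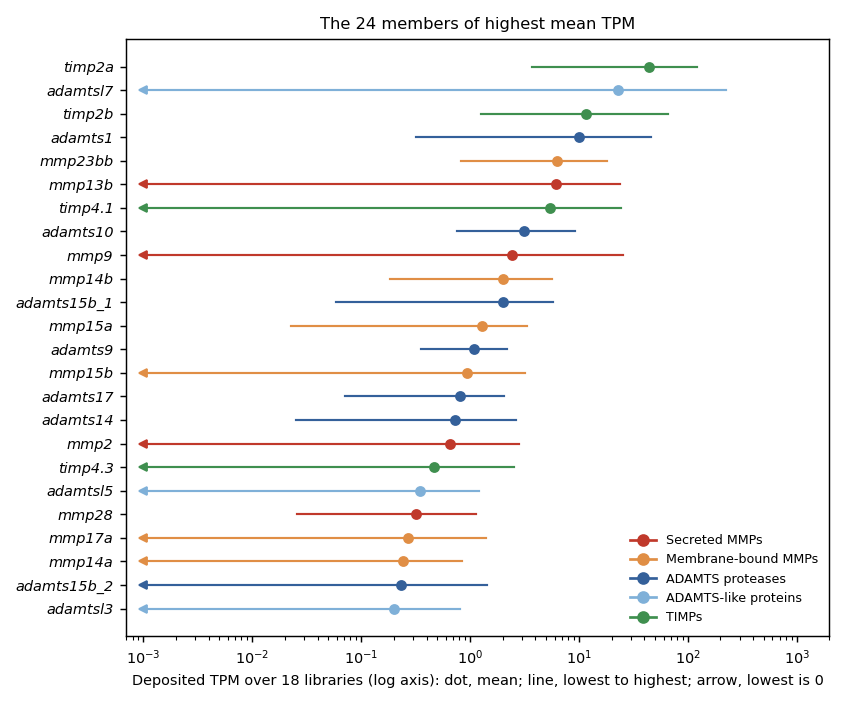
Mean deposited TPM (dots) and lowest to highest value (lines) over 18 libraries for the 24 genes of highest mean, on a log axis and coloured by class; an arrow marks a lowest value of 0. timp2a leads at 43.7 TPM, and the widest line is that of adamtsl7, from 0 to 223 TPM.

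After a filter on low counts, 35 of the 48 genes were tested. The 13 left out were mmp11b, mmp16b, mmp19, mmp20a, mmp20b, mmp24, mmp25a, mmp30, adamts6, adamts8a, adamts13, adamts15a and timp4.2. None of them exceeded 0.764 CPM in any library, and each had a count in only 3 to 10 of the 18 libraries.

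Averaged over the 3 times, ablation went with a rise of adamtsl7 and mmp13b and a fall of mmp17a. These were 3 of the 35 tested genes at an adjusted p under 0.05 (edgeR quasi-likelihood test, adjusted over all 20093 genes tested), against 8.03% of all genes. With replicate numbers as pairs (the replicate block), 6 of 35 passed, against 21.5% of all genes: mmp9, timp2b and timp4.1 also rose. In both tests the share of the family called was near that of all genes. DESeq2 called 9 of the 35 (2937 of the 20093 genes). There adamtsl7, mmp13b, mmp9, timp2b and mmp13a rose, and mmp17a, mmp23bb, adamtsl2 and adamtsl3 fell. mmp13a had no count in unablated libraries at 2 and 4 dpi. voom called 6 (1539 genes): adamtsl7, mmp13b, mmp9 and mmp2 rose, and mmp17a and adamtsl3 fell. In edgeR without the block the median log2 fold change of the 35 genes was 0.02, against -0.04 for all genes.

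At single times the test without the block called 0 of the 35 genes. At 2 dpi it called 2.25% of all genes. There 5 of the 35 had an unadjusted p under 0.05, against 16.5% of all genes. DESeq2 called 3 of the 35 (1759 of the 20093 genes) and voom 1 (430 genes). With the block 4 passed at 2 dpi (14.4% of all genes): adamtsl7 and mmp13b rose, and mmp17a and timp2a fell. At 4 dpi the test without the block called 0.0946% of all genes. There 11 of the 35 had an unadjusted p under 0.05, against 11.7% of all genes. DESeq2 called 5 of the 35 (717 of the 20093 genes) and voom 1 (157 genes). One of the genes DESeq2 called was mmp13a, which held a single count at that time. With the block 4 passed at 4 dpi (8.62% of all genes), and adamtsl7, mmp13b, mmp9 and timp2b all rose. At 7 dpi the test called 0% of all genes without the block and 0.00498% with it. None of the 35 passed at 7 dpi in edgeR, DESeq2 or voom, and 3 had an unadjusted p under 0.05 in edgeR without the block, against 6.61% of all genes.

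Calls made at single times with the block rest on 3 pairs of libraries. When each of those pairs was left out in turn, mmp13b at 2 dpi passed in 3 of 3 fits. adamtsl7 at 2 and at 4 dpi, mmp17a at 2 dpi and mmp13b at 4 dpi passed in 1 of 3 each, and timp2a at 2 dpi, mmp9 and timp2b at 4 dpi in 0 of 3. In the averaged contrast with the block, adamtsl7, mmp13b, mmp17a and timp2b passed in 9 of 9 such fits and mmp9 and timp4.1 in 5 of 9. Without the block and with 1 library left out, the 3 averaged calls held each time. Their log2 fold changes then ran from 5.61 (without ablated 2 dpi replicate 1) to 8.96 (without unablated 7 dpi replicate 3) for adamtsl7. For mmp13b they ran from 2.82 (without ablated 7 dpi replicate 3) to 4.48 (without unablated 7 dpi replicate 3), and for mmp17a from -3.71 to -3.16.

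The libraries themselves separated for more genes than the tests called. At 2 dpi all ablated libraries lay above all unablated ones for 3 tested genes and below them for 8, and 22.2% of all genes separated in either direction. At 4 dpi 7 lay above and 3 below, against 24.7% of all genes. At 7 dpi 3 lay above and 2 below, against 9.32% of all genes. The median log2 fold change of the 35 genes was -0.65 at 2 dpi, 0.49 at 4 dpi and 0.08 at 7 dpi, against -0.03, -0.07 and -0.00 for all genes. With genes that had no count in 1 group set to the limit that 3 counts per library allow, the medians were -0.49, 0.45 and 0.08.

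Among the secreted MMPs, mmp13b and mmp9 stood out. mmp13b (chromosome 15, 33967736 to 33993484 in GRCz10, ENSDARG00000100794) is one of the zebrafish counterparts of mammalian MMP13, a collagenase of wound and cartilage matrix. At 2 dpi it had 23.2, 12.7 and 33.6 CPM in the ablated libraries, against 0.445, 0 and 0.737 CPM in the unablated ones. At 4 dpi it had 12.2, 15.2 and 8.87 CPM in ablated libraries, against 0.247, 1.24 and 0.185 CPM in unablated libraries. All ablated libraries lay above all unablated ones at both times. At 7 dpi the groups overlapped, with 0.0711, 2.66 and 30.6 CPM in ablated libraries and 0.925, 1.57 and 11.5 CPM in unablated ones, and replicate 3 was the highest in each group.

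The log2 fold change of mmp13b averaged over times was 3.84 (SE 0.86, adjusted p = 0.012, edgeR; 3.69 with the block, adjusted p = 0.0013). At 2 dpi it was 5.85 (SE 1.65, adjusted p = 0.071), and 6.22 with the block, where it passed (adjusted p = 0.0032). At 4 dpi it was 4.43 (SE 1.53, adjusted p = 0.24), and 4.88 with the block (adjusted p = 0.014).

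mmp9 (chromosome 8, 24260273 to 24274708, ENSDARG00000042816) encodes gelatinase B, which cuts denatured and basement membrane collagen and is also made by leukocytes. Its ablated libraries were highest at 4 dpi, with 7.55, 35.5 and 10.8 CPM in ablated libraries, against 0.019, 0.0426 and 1.00 CPM in unablated libraries. Every ablated library was above every unablated one at that time. Its 2 dpi levels were 1.32, 0.133 and 1.25 CPM in ablated libraries, against 0.0247, 0.269 and 0.388 CPM in unablated libraries. At 7 dpi it had 0.0474, 2.86 and 2.00 CPM in ablated libraries, against 0.0561, 1.26 and 0 CPM in unablated libraries. The groups overlapped at 2 and at 7 dpi.

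On the log2 scale the fold change of mmp9 at 4 dpi was 5.67 (SE 1.86, adjusted p = 0.22, edgeR), and 7.02 with the block, where it passed (adjusted p = 0.047). Without the block it was 4.70 without ablated replicate 2 and 9.07 without unablated replicate 3. Averaged over times it was 3.19 (SE 0.97, adjusted p = 0.053), and 3.74 with the block, where it passed (adjusted p = 0.025). It was higher in the ablated library of 7 of the 9 pairs.

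Leukocytes are a known source of mmp9 and mmp13, and their markers were measured in the same libraries. The 7 neutrophil markers measured summed to 37.4 to 60.9 CPM in ablated libraries at 2 dpi, against 20.0 to 33.1 CPM in unablated ones. At 4 dpi their sum was 35.9 to 73.1 CPM in ablated libraries, against 27.5 to 32.8 CPM in unablated ones, and the groups were apart at both times. Of the 5 tested neutrophil markers, 3 had a log2 fold change above 0 at 2 dpi and 3 at 4 dpi. Of the defining neutrophil genes at 4 dpi, lyz had at most 0.562 CPM in ablated libraries and no count in unablated ones. mpx had 0 to 3.00 CPM in ablated libraries and 0.0264 to 0.596 CPM in unablated ones. The 16 macrophage and microglia markers summed to 15.3 to 51.7 CPM in ablated libraries at 2 dpi, against 1.66 to 50.3 CPM in unablated ones, with overlap. At that time 6 of the 15 tested had a log2 fold change above 0. The 16 markers summed to 21.0 to 209 CPM in ablated libraries at 4 dpi, against 4.97 to 62.6 CPM in unablated ones. There 14 of the 15 tested had a log2 fold change above 0. Of these 16, mpeg1.1 reached 21.2 CPM in ablated 4 dpi replicate 2, the library with the highest mmp9. The other ablated 4 dpi libraries had 0.685 and 2.6 CPM. At 7 dpi the macrophage and microglia markers summed to 17.3 to 680 CPM in ablated libraries, against 7.84 to 65.2 CPM in unablated ones. The neutrophil markers summed to 75.2 to 111 CPM in ablated libraries, against 24.5 to 79.8 CPM in unablated ones. Both overlapped, and 15 of 15 tested macrophage and 3 of 5 tested neutrophil markers had a log2 fold change above 0. At that time mmp9 had at most 2.86 CPM in ablated libraries. None of the macrophage or neutrophil markers passed at 2, 4 or 7 dpi with or without the block. In the averaged contrast 2 of 5 tested neutrophil markers (lyz and srgn) and 2 of 15 tested macrophage markers (cd74b and grn1) rose, against 8.03% of all genes called. The 11 markers of keratinocytes and corneal epithelium, cells known to make both proteases in zebrafish wounds, summed to 266 to 467 CPM in ablated libraries at 4 dpi, against 39.4 to 75.9 CPM in unablated ones. At 2 dpi these overlapped, at 176 to 399 CPM in ablated libraries and 6.29 to 720 CPM in unablated ones. Of the 10 tested, 5 had a log2 fold change above 0 at 2 dpi and 5 at 4 dpi. In the averaged contrast without the block cdh1 rose and cyt1l fell. With the block krt8 rose at 4 dpi (log2 fold change 2.58, adjusted p = 0.028, edgeR). In the averaged contrast with the block 3 of the 10 rose (cdh1, krt8 and epcam), against 21.5% of all genes called. There cyt1l did not pass (adjusted p = 0.19). The 15 fibroblast markers summed to 5.28 to 12 CPM in ablated libraries and 1.22 to 6.21 CPM in unablated libraries at 4 dpi. The part of these cell types in the levels of mmp9 and mmp13b was not tested.

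The other secreted MMPs were low. mmp2 (chromosome 7, 35138573 to 35161424), which encodes gelatinase A, had 2.19, 2.79 and 0.65 CPM in ablated libraries at 4 dpi, against 0, 0.639 and 0 CPM in unablated libraries. At 2 dpi mmp2 had 0.399, 0.399 and 0.232 CPM in ablated libraries and 0.939, 0 and 0 CPM in unablated libraries. Its 7 dpi levels were 1.82, 2.35 and 4.57 CPM in ablated libraries, against 0.028, 1.76 and 0 CPM in unablated libraries. The groups separated at both times by a narrow margin in CPM, and overlapped at 2 dpi. Its averaged log2 fold change was 1.84 (SE 1.1, adjusted p = 0.35, edgeR) and 4.1 with the block (adjusted p = 0.054). mmp13a (chromosome 10, 38649905 to 38676160), the other MMP13 counterpart, had 0.15, 0.976 and 0.0464 CPM in ablated libraries at 2 dpi and no count in any unablated one. That is at least 3.6-fold higher, against a floor of 3 counts per library. At 4 dpi a single ablated library held 1 count of mmp13a and no other library any. At 7 dpi 1 ablated library had 3.56 CPM and 1 unablated library 0.885 CPM, and the other four had none. mmp11a and mmp28 stayed at or under 2.6 CPM in every library.

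**Figure D2:**
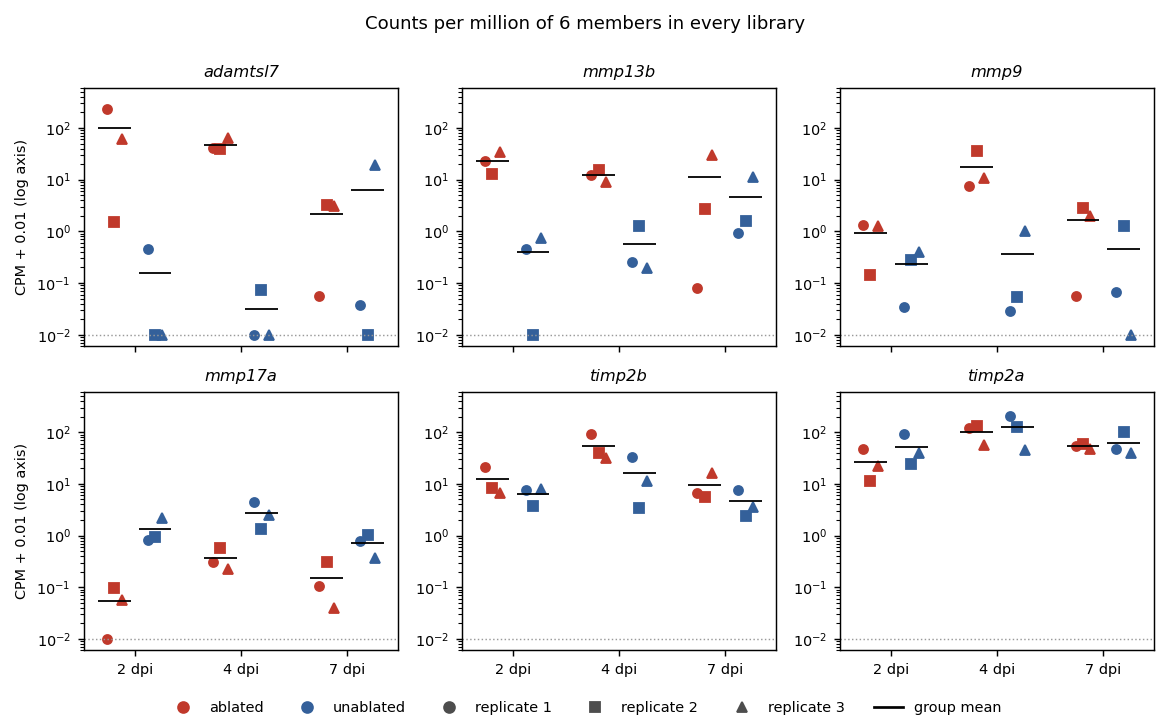
CPM plus 0.01 on a log axis in every library for 6 genes, ablated libraries (red) left of unablated ones (blue) at 2, 4 and 7 dpi; marker shapes give the replicate, black lines the group mean and the dotted line a value of 0. At 2 and 4 dpi the ablated libraries of adamtsl7 and mmp13b lie above all unablated ones, and mmp17a lies below at all 3 times.

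Of the membrane-bound MMPs, mmp17a was lower in ablated libraries at every time. mmp17a (chromosome 21, 14791718 to 14950279, ENSDARG00000078915) is a counterpart of mammalian MMP17, a protease held on the cell surface by a lipid anchor. At 2 dpi it had 0, 0.0887 and 0.0464 CPM in ablated libraries, against 0.815, 0.943 and 2.17 CPM in unablated libraries. Its 4 dpi levels were 0.301, 0.558 and 0.217 CPM in ablated libraries, against 4.39, 1.32 and 2.51 CPM in unablated ones. At 7 dpi it had 0.0948, 0.301 and 0.0289 CPM in ablated libraries, against 0.757, 0.993 and 0.361 CPM in unablated ones. The groups did not overlap at any of the 3 times, although the level was low throughout.

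The averaged log2 fold change of mmp17a was -3.38 (SE 0.66, adjusted p = 0.0061, edgeR), and -3.53 with the block (adjusted p = 0.0034). It was lower in the ablated library of 9 of 9 pairs; 4.69% of all tested genes were lower in every pair. Without replicate 1 of every group it no longer passed, at -2.90 (adjusted p = 0.060). At 2 dpi the ablated libraries held 3 counts in all, against 110 in the unablated ones. The level was thus 34.9 times lower, with a 95% counting interval from 11.6 to 172; its adjusted p was 0.051, and 0.021 with the block. At 4 dpi its log2 fold change was -2.93 (SE 1.09, adjusted p = 0.29) and at 7 dpi -2.34 (SE 1.1, adjusted p = 0.76). Of 15 tested retinal neuron markers 4 fell in the averaged contrast, against 8.03% of all genes called; with the block 7 fell and 1 rose, against 21.5%. At 2 dpi 2 of them fell, and at 4 and 7 dpi none passed with or without the block. The 16 measured summed to 36.4 to 46.9 CPM in ablated libraries and 65.2 to 124 CPM in unablated libraries at 2 dpi. Their sums overlapped at 4 dpi, at 40.3 to 120 CPM in ablated libraries and 65.8 to 182 CPM in unablated ones. They also overlapped at 7 dpi, at 64.4 to 97.8 CPM in ablated libraries and 66.3 to 311 CPM in unablated ones. Their part in the level of mmp17a was not tested. mmp17b, the paralogue, passed in no ablation contrast. The ablated library was the higher one in 8 of its 9 pairs, and its levels ran from 0.135 to 3.21 CPM.

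mmp14a and mmp14b encode counterparts of MMP14, the membrane collagenase that activates MMP2. mmp14b (chromosome 2, 38178797 to 38201364) had 12.1, 3.96 and 9.49 CPM in ablated libraries at 7 dpi, against 2.52, 3.13 and 3.21 CPM in unablated libraries. The groups separated there (log2 fold change 1.52, SE 0.66, adjusted p = 0.74, edgeR, and adjusted p = 0.28 with the block), and overlapped at 2 and 4 dpi. At 2 dpi mmp14b had 3.37, 0.843 and 4.32 CPM in ablated libraries, against 5.06, 2.65 and 3.49 CPM in unablated libraries. Its 4 dpi levels were 6.23, 5.55 and 11.6 CPM in ablated libraries, against 2.58, 3.51 and 7.56 CPM in unablated ones. The ablated library was the higher one in 7 of its 9 pairs. mmp14a (chromosome 7, 23853132 to 23878513) was low. Its 2 dpi levels were 0.0499, 0.532 and 0.418 CPM in ablated libraries, against 0.321, 0.0449 and 0.0776 CPM in unablated libraries. At 4 dpi mmp14a had 0.411, 0.983 and 0.343 CPM in ablated libraries, against 0.855, 0.405 and 0 CPM in unablated libraries. At 7 dpi mmp14a had 0.166, 0.852 and 0 CPM in ablated libraries, against 1.43, 0.0382 and 1.28 CPM in unablated libraries. The groups overlapped at all 3 times, and the ablated library was higher in 5 of 9 pairs.

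mmp23bb (chromosome 18, 45993010 to 46007507) is a counterpart of MMP23, a small MMP that lacks the usual haemopexin domain. It had 1.87, 1.82 and 1.90 CPM in ablated libraries at 2 dpi, against 6.97, 3.14 and 3.34 CPM in unablated ones. At 4 dpi it had 5.76, 1.73 and 2.96 CPM in ablated libraries, against 13.3, 9.61 and 14.9 CPM in unablated ones. All ablated libraries were below all unablated ones at both times. The 6.97 CPM came from unablated 2 dpi replicate 1, the library high in muscle markers described below with adamts1. At 7 dpi the groups overlapped, with 6.87, 1.55 and 3.01 CPM in ablated libraries and 6.25, 13.1 and 0.689 CPM in unablated libraries. The log2 fold change at 4 dpi was -1.85 (SE 0.80, adjusted p = 0.37, edgeR) and averaged over times -1.31 (SE 0.46, adjusted p = 0.089). Neither passed with the block (adjusted p = 0.15 and 0.12), while DESeq2 called the averaged difference. mmp15a, mmp15b and mmp25b, the other tested members of the class, stayed at or under 5.24 CPM. mmp25b, whose mammalian counterpart is a neutrophil protease, reached at most 0.639 CPM.

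The ADAMTS proteases gave no call in any ablation contrast, with or without the block. The most abundant was adamts1 (chromosome 1, 677013 to 686023), known in mammals to cut versican and aggrecan. Its 2 dpi levels were 15.8, 12.6 and 17.1 CPM in ablated libraries, against 101, 29.7 and 35.6 CPM in unablated libraries. All ablated libraries were lower (log2 fold change -1.87, SE 1.25, adjusted p = 0.51, edgeR, and adjusted p = 0.14 with the block). The unablated library at 101 CPM, replicate 1, also held 2100 CPM of 15 muscle markers, against 54.2 and 66.4 CPM in the other two unablated 2 dpi libraries. Without that library the log2 fold change was -1.11. At 4 dpi adamts1 had 4.99, 6.64 and 14 CPM in ablated libraries, against 32.1, 38.4 and 5.13 CPM in unablated ones. Its 7 dpi levels were 50.8, 0.952 and 2.23 CPM in ablated libraries, against 51.7, 1.45 and 4.75 CPM in unablated ones. The groups overlapped at 4 and 7 dpi, and replicate 1 was far above the others in both groups at 7 dpi.

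adamts10 (chromosome 8, 20262662 to 20358495), whose human counterpart binds fibrillin, had 7.33, 9.36 and 10.5 CPM in ablated libraries at 2 dpi, against 22.4, 11.8 and 14 CPM in unablated ones. The 22.4 CPM came from unablated replicate 1, the library with the muscle markers. adamts10 was lower in every ablated library at 2 dpi. Its 4 dpi levels were 35.5, 8.16 and 17.7 CPM in ablated libraries and 18.4, 2.64 and 10.1 CPM in unablated libraries, and at 7 dpi 13.6, 21.8 and 10.9 CPM in ablated libraries and 19.1, 18.4 and 11.7 CPM in unablated ones. The ablated library was higher in 4 of 9 pairs.

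2 more ADAMTS genes were chosen here after their values were seen. adamts17, whose human counterpart like ADAMTS10 is tied to fibrillin disorders of the eye, was lower in the ablated library of 9 of 9 pairs. With mmp17a this made 2 of the 35 tested genes, near the 4.69% of all genes that were lower in every pair. adamts17 averaged 0.932 ± 0.614 CPM in ablated libraries and 2.18 ± 0.627 CPM in unablated libraries at 2 dpi (SD, n = 3 each). The groups did not overlap at 2 dpi and overlapped at 4 and 7 dpi. Its averaged log2 fold change was -0.64 (SE 0.60, adjusted p = 0.59, edgeR; -1.03 with the block, adjusted p = 0.13). No tested gene of the family was higher in the ablated library of every pair, where 4.52% of all genes were. adamts15b_1, a gene ID that shares its symbol with a neighbour, had 5.41, 3.91 and 8.37 CPM in ablated libraries at 4 dpi, against 0.437, 1.06 and 2.06 CPM in unablated ones, and separated at that time only.

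The remaining tested ADAMTS proteases were adamts2, adamts3, adamts5, adamts9, adamts12, adamts14, adamts15b_2, adamts16 and adamts18. adamts9, a versican protease, was the most even of them, at 1.85 to 11.4 CPM over the 18 libraries. adamts2, adamts3 and adamts14 are procollagen proteases. adamts14 had 0.125 to 0.621 CPM in ablated libraries and 1.16 to 1.80 CPM in unablated libraries at 2 dpi, without overlap. adamts18 also separated at 2 dpi, with at most 0.0928 CPM in ablated libraries and at least 0.629 CPM in unablated ones. adamts3 had 0.10 to 0.261 CPM in ablated libraries and 0.295 to 0.336 CPM in unablated libraries at 7 dpi, while at 2 dpi its ablated libraries reached 2.57 CPM.

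adamtsl7 gave the largest averaged rise of the 31 tested genes that had a count in every group. adamtsl7 (chromosome 1, 20883737 to 20906282, ENSDARG00000055439) is named as an ADAMTS-like gene, a kind without the protease domain. At 2 dpi it had 236, 1.51 and 62.3 CPM in ablated libraries, against 0.445, 0 and 0 CPM in unablated libraries. At 4 dpi it had 40.3, 39.0 and 63.0 CPM in ablated libraries, against 0, 0.0639 and 0 CPM in unablated libraries. The groups were apart at both times, with a wide spread among the ablated libraries at 2 dpi and a narrow one at 4 dpi. At 7 dpi it had 0.0474, 3.21 and 3.1 CPM in ablated libraries, against 0.028, 0 and 18.9 CPM in unablated libraries, and the highest value was an unablated one.

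On the log2 scale the fold change of adamtsl7 at 2 dpi was 9.17 (SE 2.47, adjusted p = 0.061, edgeR), and 9.60 with the block, where it passed (adjusted p = 0.0057). Without the block it was 7.54 without ablated replicate 1. Without unablated replicate 1 that group held no count, so no fold is given. At 4 dpi the unablated libraries held 3 counts in all, against 7896 in the ablated ones. The ratio was 2180, with a 95% counting interval from 746 to 10572; its adjusted p was 0.11, and 0.0060 with the block. The averaged log2 fold change was 6.16 (SE 1.30, adjusted p = 0.0093), and 6.97 with the block (adjusted p = 0.00093). The averaged value takes in the 4 dpi group with 3 counts. With the block and without replicate 1 of every group it did not pass, at 8.05 (adjusted p = 0.065). It was higher in the ablated library of 8 of 9 pairs.

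Of the other ADAMTS-like genes, adamtsl3 (chosen after its values were seen) pointed the other way. Its 4 dpi levels were 0.0959, 0.0266 and 0.163 CPM in ablated libraries, against 0.684, 1.85 and 2.01 CPM in unablated ones, without overlap. The averaged log2 fold change was -2.83 (SE 0.89, adjusted p = 0.059, edgeR, and adjusted p = 0.065 with the block), and both DESeq2 and voom called it. adamtsl2, which binds fibrillin in mammals, was lower in the ablated library of 7 of 9 pairs, at 0 to 3.95 CPM. adamtsl5 was higher in 7 of 9 pairs, at 0 to 2.30 CPM.

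The TIMPs held more RNA per length, averaged over the 18 libraries, than any other class. timp2a (chromosome 12, 33889964 to 33934381, ENSDARG00000061226) had 47.2, 11.4 and 22.1 CPM in ablated libraries at 2 dpi, against 93.0, 24.1 and 39.1 CPM in unablated libraries. The groups overlapped, but within each replicate number the ablated library was the lower one. The log2 fold change was -0.95 (SE 0.62, adjusted p = 0.49, edgeR), and -0.96 with the block, where it passed (adjusted p = 0.033). It passed with the block in none of the fits without 1 of the 2 dpi pairs, at -0.999 to -0.893. Without unablated replicate 1, the library with the muscle markers, the value without the block was -0.23. None of the 11 tested Mueller glia markers passed at 2 dpi without the block and 3 fell with it, against 14.4% of all genes called. They summed to 1002 to 2680 CPM in ablated libraries and 4362 to 7721 CPM in unablated libraries, and their part in the level of timp2a was not tested. At 4 dpi timp2a had 118, 132 and 56.3 CPM in ablated libraries and 205, 128 and 45.9 CPM in unablated libraries. Its 7 dpi levels were 54.9, 58.5 and 46.2 CPM in ablated libraries and 48.0, 101 and 39.0 CPM in unablated libraries, and the groups overlapped at both times.

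timp2b (chromosome 3, 57562441 to 57595994, ENSDARG00000075261), the paralogue, had 90.5, 40.3 and 31.5 CPM in ablated libraries at 4 dpi, against 33.1, 3.45 and 11.1 CPM in unablated libraries. Each ablated library was above the unablated one of its number, and the groups overlapped only through unablated replicate 1, the library whose sequencing name disagrees with its label. On the log2 scale the fold change was 1.77 (SE 0.74, adjusted p = 0.35, edgeR), and 2.13 with the block, where it passed (adjusted p = 0.041). Without the block it ran from 1.22 without ablated replicate 1 to 2.92 without unablated replicate 1. Averaged over times it was 1.25 (SE 0.43, adjusted p = 0.079), and 1.34 with the block, where it passed (adjusted p = 0.013). Without unablated 4 dpi replicate 1 it was 1.64 and passed without the block too (adjusted p = 0.029). That was the top of the range with single libraries left out, which began at 1.02 without the block. The highest adjusted p was 0.17, without ablated 7 dpi replicate 3 (edgeR). At 2 dpi timp2b had 21.4, 8.38 and 6.78 CPM in ablated libraries and 7.58, 3.64 and 7.95 CPM in unablated libraries. At 7 dpi it had 6.68, 5.46 and 16.4 CPM in ablated libraries and 7.76, 2.41 and 3.51 CPM in unablated libraries. Its mean was highest at 4 dpi in both groups. The unablated 4 dpi library at 3.45 CPM lay below all unablated 2 dpi libraries, and 4 against 2 dpi within a group was not tested.

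timp4.1 (chromosome 11, 666012 to 676529) was the first of 3 TIMP4 copies in a row. It had 27.8, 9.86 and 26.2 CPM in ablated libraries at 4 dpi, against 2.77, 0.469 and 0.872 CPM in unablated libraries. Its 7 dpi levels were 9.90, 13.0 and 11.8 CPM in ablated libraries, against 0, 9.24 and 1.18 CPM in unablated libraries. All ablated libraries were higher at both times. At 2 dpi it was low, with 3.42, 0 and 0.325 CPM in ablated libraries and 1.63, 0 and 0 CPM in unablated libraries. The log2 fold change at 4 dpi was 3.95 (SE 1.83, adjusted p = 0.41, edgeR, and adjusted p = 0.070 with the block). Averaged over times it was 2.28 (SE 0.99, adjusted p = 0.17), and 3.20 with the block, where it passed (adjusted p = 0.022). Without the block it was 1.30 without ablated 2 dpi replicate 1 and 3.15 without unablated 7 dpi replicate 2. It passed (adjusted p = 0.036) without unablated 2 dpi replicate 1, which leaves that group with no count. It was higher in the ablated library of 8 of 9 pairs and lower in 0, and 1 pair had no count. timp4.3 reached at most 1.95 CPM.

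**Figure D3:**
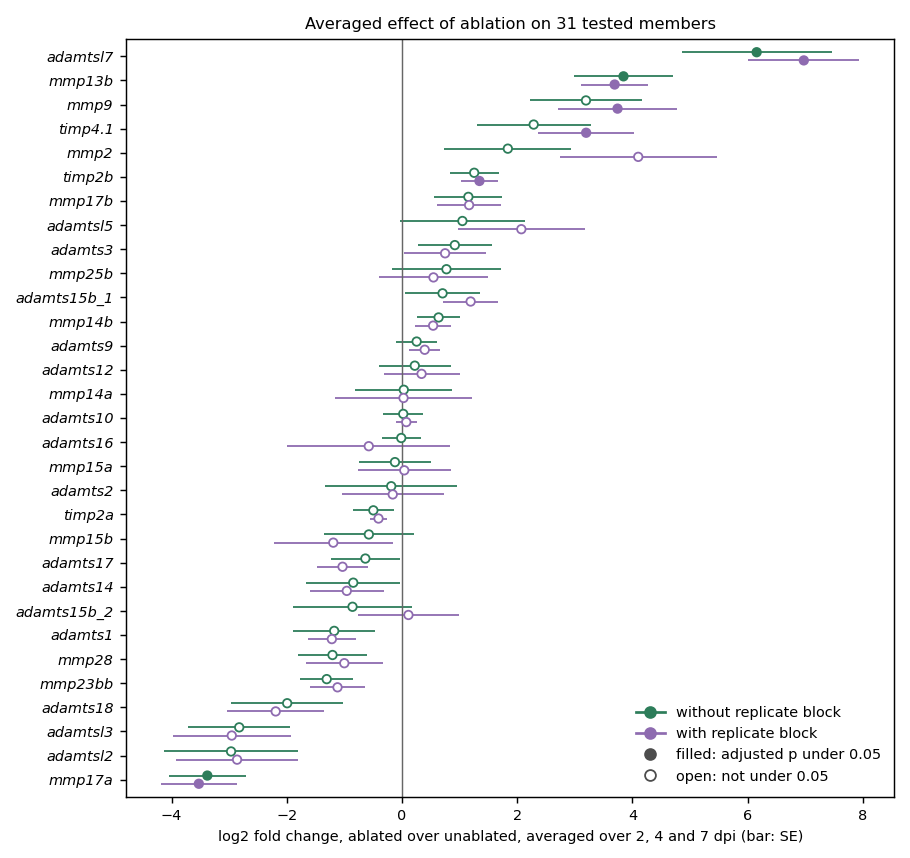
Log2 fold change, ablated over unablated, averaged over 2, 4 and 7 dpi with its standard error for the 31 tested genes that have a count in every group, without (green) and with (purple) the replicate block; filled points have an adjusted p under 0.05. The filled points without the block are adamtsl7 at 6.16, mmp13b at 3.84 and mmp17a at -3.38; the block adds mmp9, timp4.1 and timp2b.

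Summed by class, the secreted MMPs were apart between groups at 2 and 4 dpi. Their summed TPM was 13.6 ± 7.82 in ablated and 0.887 ± 0.728 in unablated libraries at 2 dpi, and 26.2 ± 14.4 in ablated and 1.83 ± 1.24 in unablated libraries at 4 dpi (SD, n = 3 each). At 7 dpi the sums were 12.1 ± 14.1 TPM in ablated and 5.61 ± 4.90 TPM in unablated libraries. At 7 dpi the groups overlapped. mmp13b and mmp9 had the highest mean TPM of this class. The membrane-bound MMPs summed to 13.0 ± 2.76 TPM in ablated and 21.6 ± 2.89 TPM in unablated libraries at 4 dpi, without overlap, and overlapped at 2 and 7 dpi. This separation depended on the scale. In summed CPM the groups overlapped at 4 dpi, at 15.8 to 23.1 CPM in ablated and 19.5 to 29.2 CPM in unablated libraries. Of the 8 tested at 4 dpi, mmp23bb, the most abundant, mmp17a and mmp25b had lower mean CPM in ablated libraries (ratios 0.277, 0.131 and 0.264). mmp14a, mmp14b, mmp15a, mmp15b and mmp17b had higher mean CPM there, at ratios of 1.11 to 2.79.

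The ADAMTS proteases summed to 8.53 ± 4.93 TPM in ablated and 26.9 ± 27.7 TPM in unablated libraries at 2 dpi. In TPM they overlapped at all 3 times. In summed CPM they were apart at 2 dpi, at 31.0 to 37.9 CPM in ablated and 57.4 to 139 CPM in unablated libraries. Unablated 2 dpi replicate 1, the library with the muscle markers, held 58.9 TPM and the 139 CPM. The others of that group held 11.7 and 10.3 TPM. The ADAMTS-like sum was 82.4 ± 122 TPM in ablated and 0.495 ± 0.405 TPM in unablated libraries at 2 dpi, with ranges that overlapped. At 4 dpi it was 48.6 ± 15.0 TPM in ablated and 1.48 ± 0.796 TPM in unablated libraries, without overlap. At 7 dpi it was 2.13 ± 0.707 TPM in ablated and 6.76 ± 9.63 TPM in unablated libraries, with overlap. Of the ablated ADAMTS-like sum at 4 dpi, adamtsl7 alone held 47.7 TPM on average. At that time adamtsl2 and adamtsl3 had lower means in ablated libraries and adamtsl5 a higher one. The TIMP sum overlapped at every time: 21.5 ± 24.7 TPM in ablated and 28.8 ± 30.8 TPM in unablated libraries at 2 dpi, 134 ± 39.5 TPM in ablated and 94.3 ± 53.3 TPM in unablated libraries at 4 dpi, and 45.1 ± 5.52 TPM in ablated and 44.2 ± 18.9 TPM in unablated libraries at 7 dpi. The ratio of summed TIMP to summed MMP TPM was 0.534 to 1.84 in ablated libraries at 2 dpi, against 2.62 to 4.07 in unablated libraries. The ranges did not overlap at 2 dpi. At 4 dpi the ratio was 2.55 to 5.53 in ablated and 1.43 to 7.04 in unablated libraries, and at 7 dpi 1.2 to 3.75 in ablated and 1.75 to 3.18 in unablated libraries, with overlap at both. The TIMP sum lacks timp3, which was not analysed here, and the MMP sum includes mmp13b, whose rise is given above. Class sums and ratios are descriptions of chosen genes and carry no test.

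**Figure D4:**
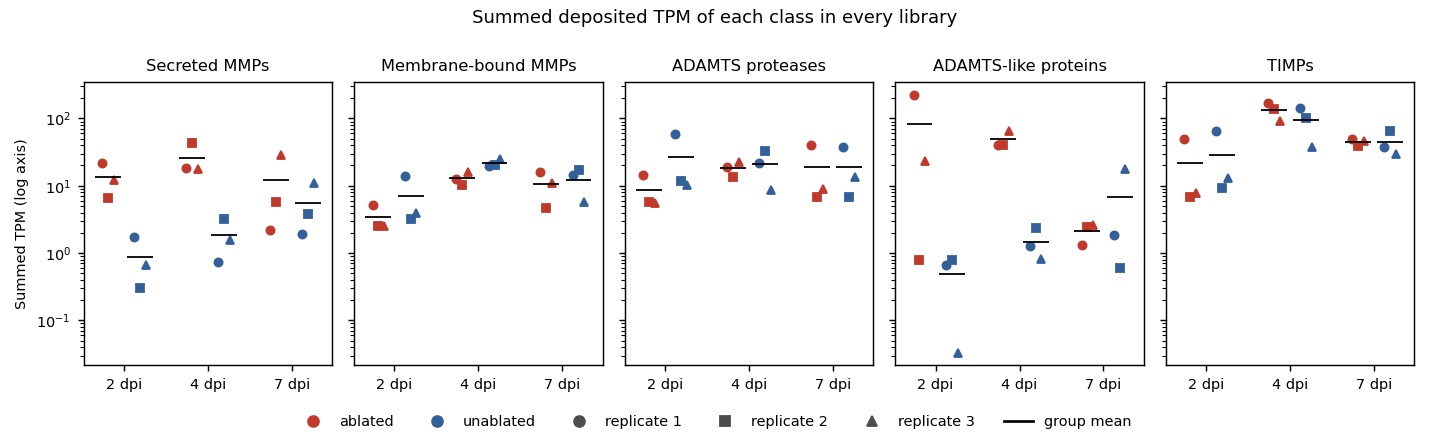
Summed deposited TPM of the genes of each class in every library on a log axis, ablated (red) left of unablated (blue) at 2, 4 and 7 dpi; shapes give the replicate and black lines the group mean. The secreted MMPs are apart at 2 dpi (13.6 TPM in ablated, 0.887 TPM in unablated libraries on average) and at 4 dpi, while the TIMPs overlap at every time.

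The change of the ablation effect between times was tested directly. Between 4 and 2 dpi none of the 35 genes passed, with 0% of all genes called without the block and 0.0796% with it. There 2 of the 35 had an unadjusted p under 0.05 in edgeR without the block, against 4.57% of all genes, and DESeq2 and voom called none. Between 7 and 2 dpi none passed without the block, where 0% of all genes were called and 4 of the 35 had an unadjusted p under 0.05, against 10.3% of all genes. DESeq2 called mmp13a (285 genes in all) and voom none. mmp13a had no count in unablated libraries at 2 dpi, and at 7 dpi only 1 library of each group held any. With the block mmp13b passed, at a change of -6.24 on the log2 scale (SE 1.35, adjusted p = 0.031; 4.29% of all genes called), against -4.60 without it (SE 1.99, adjusted p = 0.45). With 1 pair left out it passed in 3 of 6 fits. The corresponding change of adamtsl7 was -10.76 (SE 2.97, adjusted p = 0.32), and -9.12 with the block (adjusted p = 0.098). Without unablated 7 dpi replicate 3 it was -2.37, and with the block and without that pair -3.61.

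Libraries of 7 and 2 dpi were compared within each group, a contrast in which replicate numbers cannot pair the libraries. Larvae at 7 dpi were also older, so age and time after injury cannot be told apart here. The date-like strings in library names, described below, also differ between 2 and 7 dpi where present. In ablated larvae none of the 35 genes passed, against 6.75% of all genes, and 4 had an unadjusted p under 0.05, against 22.7% of all genes. DESeq2 called adamts3 (3144 genes in all) and voom none. In unablated larvae none passed, against 3.86% of all genes, and 3 had an unadjusted p under 0.05, against 21.0% of all genes. DESeq2 called adamtsl5, mmp13a and mmp13b (2569 genes in all) and voom none. The unablated libraries at 2 dpi held no count of mmp13a and 1 of adamtsl5. At 7 dpi mmp13a had counts in 1 unablated library, and adamtsl5 ran from 0 to 2.30 CPM with a mean of 0.792 CPM.

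Related gene lists were counted in the same tests, in which 8.03% of all genes were called in the averaged contrast without the block and 21.5% with it. The list of plasminogen activation and serpins holds genes that control plasmin, which activates several MMP precursors, and also other serpins such as serpinb1. In it serpine2 (1.90 on the log2 scale, SE 0.39, adjusted p = 0.0075, edgeR) and serpinb1 (2.78, SE 0.43, adjusted p = 0.0018) rose in the averaged contrast. Both also rose at 2 and at 4 dpi with the block. Of the 7 tested furin-type convertases and reck, none passed without the block in any ablation contrast. With the block 3 fell in the averaged contrast, among them reck, which encodes a membrane inhibitor of MMPs (-0.79, adjusted p = 0.0036).

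Of the 14 tested AP-1 genes, a family of factors known to drive MMP promoters, 2 rose and 2 fell in the averaged contrast. At 2 dpi only fosl1b passed without the block. It had 54.1 ± 35.7 CPM in ablated libraries and 0.429 ± 0.220 CPM in unablated libraries (SD, n = 3 each; log2 fold change 6.98, SE 1.43, adjusted p = 0.020, edgeR). Of 18 tested basement membrane genes and fibronectin, fn1a (4.36, SE 0.71, adjusted p = 0.0021) and col4a5 (0.83, SE 0.23, adjusted p = 0.038) rose in the averaged contrast and none fell. Of 15 tested proteoglycan and hyaluronan genes, hapln1a (-4.92, SE 1.45, adjusted p = 0.045) and has2 (-2.24, SE 0.67, adjusted p = 0.049) fell in the averaged contrast; hapln1a did not pass with the block (-3.00, adjusted p = 0.23). Of 14 tested cathepsins, ctsh and ctsk rose in the averaged contrast (adjusted p = 0.0095 and 0.014). In the ADAM list adam8b rose (2.53, SE 0.66, adjusted p = 0.026), and 0 of the 15 tested fell. In the list of fibrillins, elastin and crosslinkers loxl2a rose (4.57, SE 0.90, adjusted p = 0.0062) and none of the 14 tested fell, and of the 6 tested astacin and BMP1 proteases none passed in any ablation contrast in edgeR with or without the block. With the block the averaged counts were 6 higher and 5 lower for AP-1, 2 higher and 2 lower for basement membrane and fibronectin, 1 higher and 4 lower for proteoglycans and hyaluronan, 4 higher and 1 lower for cathepsins, 1 higher and 2 lower for ADAMs, and 1 higher and 1 lower for fibrillins, elastin and crosslinkers. Against the 21.5% of all genes, 11 of the 14 AP-1 genes were called, while the 4 of 18 basement membrane genes and the 3 of 15 ADAMs lay near that share. fosl1b was named because it passed at 2 dpi in these data, and the other genes of these lists were named after their values were seen.

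Several family genes lie next to each other in GRCz10. adamts1 and adamts5 are 10336 bases apart on chromosome 1; adamts1 had a count in all 18 libraries and adamts5 in 8. timp4.1, timp4.2 and timp4.3 follow each other on chromosome 11, with gaps of 2699 and 3353 bases, and only timp4.1 exceeded 1.95 CPM. mmp13a and mmp30 lie 23771 bases apart on chromosome 10. adamts15b_1 and adamts15b_2 are 4314 bases apart on opposite strands of chromosome 15, and mmp20a and mmp20b are 328 bases apart on the same chromosome. How the authors assigned reads that fit more than 1 of such copies is not given in the sources used here, so the split of counts between neighbouring copies is uncertain.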

How the data were processed

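The authors deposited a table for each time with read counts and TPM per gene; positions are in GRCz10, per the submitters' processing notes. SMART-Seq v4 amplified the cDNA and Nextera XT made the libraries, per the labels' protocols. For the aligner and the counting rule, nothing is given in the sources used here. The deposited counts were tested as they stand. The deposited TPM were used for levels between genes, and for class sums and ratios set side by side between groups within a time. Each table was normalised separately, and the TPM were not rescaled by TMM.

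Genes passed filterByExpr of edgeR by group (20093 of 29481 with a count). Counts were scaled by TMM and fitted with edgeR 4.0.16 (quasi-likelihood, robust) in R 4.3.3, with 6 group means over 18 libraries and 12 residual degrees of freedom. The biological coefficient of variation was 79.9%. P-values were adjusted by Benjamini and Hochberg across the 20093 genes, and 0.05 was the threshold. CPM use TMM-scaled library sizes. Intervals and floors cover counting error only; the floor of 3 counts was 0.0411 to 0.15 CPM.

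The replicate block adds 9 pairs of the same time and number, leaving 6 residual degrees of freedom. Numbers were taken as pairs because deviations from group means correlated at 0.270 to 0.774 between libraries of the same number. Between other numbers they correlated at -0.655 to 0.375, the highest between replicates 2 and 3 at 2 dpi. Deviations within a group cancel out, so a positive correlation for the same number by itself lowers those between other numbers. The pairs were thus chosen from the same data that were then tested with them. The labels do not say what a number shares. Within each pair numbered 2 or 3, however, both libraries were named with an identical string that looks like a date. At 2 dpi that string is also the same across numbers 2 and 3. Libraries numbered 1 were named without one. What the string stands for is not given in the sources used here, and its part in these correlations was not tested.

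Genes given in every library were those called in any contrast, those called with the block at a time with a group mean of at least 5 CPM, the 8 of highest mean TPM, and mmp2, mmp9, mmp13a, mmp14a, mmp14b, timp2a and timp2b; the rule also names timp3, which was not analysed here. Members, lists and this rule were chosen with earlier results of these data known. Pathway and marker lists were written from general knowledge. Alternatives were DESeq2 1.42.0, voom of limma 3.58.1, size factors of DESeq2, no filter, single times, the block, and libraries left out; the block without pairs or without replicate 1 was added after seeing the data. The pipeline was tested on simulated data. The name table matched 47 of the 48 gene IDs. In the list of plasminogen activation and serpins, 1 result is not reported here.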

Additional observations from a re-analysis of the deposited data

Results flagged for a closer look

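The effect of ablation on mmp13b differed between 7 and 2 dpi in the test of the difference itself when replicate numbers were paired. The change was -6.24 on the log2 scale (adjusted p = 0.031, edgeR with the replicate block), with ablated libraries above unablated ones in all 3 pairs at 2 dpi. Without the block the change was -4.60 and did not pass (adjusted p = 0.45). Leaving out unablated 7 dpi replicate 3, which had 11.5 CPM, gave -2.70 without the block, and leaving out ablated 7 dpi replicate 3, which had 30.6 CPM, gave -7.65. With the block and 1 pair left out in turn, the adjusted p ran from 0.036 to 0.10. Groups of 3 libraries are too small for a check of single outlying libraries.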

How the results depend on the processing

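The direction of every fold change given in the report that was refitted held in all 628 values from the alternatives. Many of these values come from the same fit and share libraries, so they are not independent checks. Of them 548 kept their side of the threshold, 3 lost the call and 77 gained one. The 3 lost calls all came with replicate 1 of every group left out: mmp17a averaged at -2.90 (adjusted p = 0.060, and -3.03, adjusted p = 0.070, with the block) and adamtsl7 averaged at 8.05 with the block (adjusted p = 0.065). Counts moved far more, and why was not tested.

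Of the 35 genes, DESeq2 called 3 at 2 dpi, 5 at 4 dpi, 9 averaged, 1 in the change from 2 to 7 dpi, and 1 (ablated) and 3 (unablated) with time; voom called 1, 1 and 6 in the first 3 of these. The replicate block gave 4, 4, 6 and 1. Without replicate 1 of every group, 1 (ablated) and 2 (unablated) passed with time, and 1 at 2 dpi with the block. Only the 4 dpi libraries gave 1. With single libraries left out, 0 passed at single times and 3 to 6 averaged, the 3 named calls among them each time, with 6 when ablated 7 dpi replicate 1 was out. With the block and pairs left out, 1 to 3 passed at 2 dpi, 0 to 2 at 4 dpi, 5 to 8 averaged and 0 to 3 in the change from 2 to 7 dpi.

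Over all genes, 452 passed at 2 dpi, 19 at 4 dpi, 0 at 7 dpi, 1613 averaged and, with time, 1356 in ablated and 776 in unablated larvae. DESeq2 gave 1759, 717, 133 and 2937 for ablation, 26 and 285 for the changes to 4 and 7 dpi, and, with time, 3144 in ablated and 2569 in unablated larvae. The block gave 2901, 1732, 1 and 4310, and 16 and 862 for the changes. voom gave 157 at 4 dpi and 416 with time in unablated larvae. Single-time fits gave 78 at 2 dpi and 220 at 4 dpi, and fits of 6 libraries, with time, 3 in ablated and 0 in unablated larvae. No filter gave 35 at 4 dpi. Without replicate 1 of every group, 10 passed at 4 dpi and 2668 with time in unablated larvae; with the block as well, 783 at 2 dpi, 33 at 4 dpi and 2 in the change to 7 dpi. With single libraries left out the counts were 19 to 252 at 2 dpi, 0 to 27 at 4 dpi, 0 to 3 at 7 dpi, 1018 to 1933 averaged, 0 and 0 to 2 in the changes, and, with time, 443 to 1368 in ablated and 0 to 1369 in unablated larvae. With the block and pairs left out they were 1191 to 1465, 339 to 925, 0 to 4, 3213 to 4232, 1 to 12 and 122 to 757.

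Without the library labelled unablated 4 dpi replicate 1, 4 of the 35 passed averaged: adamtsl7 at 5.97, mmp13b at 3.75, mmp17a at -3.17 and timp2b at 1.64. Depth limits what can be said of the 13 untested genes and of groups at 0 counts, and 3 libraries a group limit every single-time call.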
